A study of Mus musculus with 14 samples.

Results

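Blood cells that passed a rule on stem cell genes were split into cycling and resting cells by a second rule on cell cycle genes. The states were compared within mice, except in 1 unit that pooled m605, m606 and a plate of both. The cells were single mouse cells without lineage markers and positive for Tom (Lin- Tom+), a label that the study's design ties to inducible tracing of adult stem cells and their progeny. They were sorted into 96-well plates and read with a modified Smart-seq2 method that sequences the 3′ end of transcripts. Mouse m4539 was taken at day 3, mouse m4533 at day 10, and mice m4528, m605 and m606 at day 17, on 14 plates of which 1 held cells of m605 and m606 together. All groups shared this gate, and no group without the label was analysed here. The labels give no genotype, age or sex, no promoter for the label, and no event from which the days were counted. Days 3 and 10 are 1 mouse each, so day and mouse cannot be told apart there. The plates of m605 and m606 form a count table of their own, so a difference of these mice from the others cannot be told apart from one between tables.

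The cells were chosen by their counts. Of 1010 cells with at least 500 genes and 10000 counts, 323 had more than 10 counts in at least 3 of 7 stem cell genes (Hlf, Mecom, Mllt3, Sult1a1, Procr, Pdzk1ip1 and Ifitm1) and at most 10 in each of 6 lineage genes (Pf4, Gp1bb, Klf1, Ly86, Cebpe and Mcpt8). Cycling cells had more than 10 counts in at least 3 of 8 cell cycle genes (Mki67, Top2a, Cdk1, Ccnb1, Ccnb2, Birc5, Rrm2 and Cenpa), and resting cells had more than 10 in none. This gave 15 cycling and 252 resting cells, 267 of the 1010, and left 56 stem cells between them with 1 or 2 of the 8 genes. "Stem cell" here means a cell that passed the rule. Markers outside it went in part against that name in cycling cells, as given below for Ly6a. Hoxb5 did so outside m4539 only, and Cd48 in the 1 cycling cell of m606 only. The cycling cells were 5 of m4539, 2 of m4533, 6 of m4528, 1 of m606 and 1 of the shared plate, and m605 had none. "Resting" here means only that none of the 8 genes exceeded 10 counts. Each plate used the same 96 cell barcodes, so a barcode names a well and not a shared cell.

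Most blood stem cells of the adult marrow are out of the cell cycle and divide rarely. D-type cyclins with Cdk4 and Cdk6 drive entry into the cycle, CDK inhibitors such as Cdkn1c hold it back, and cyclin B with Cdk1 drives mitosis. Immediate early genes such as Fos, Egr1 and Ier2 are transcribed within minutes of a signal or of stress, cell isolation included. Their response is ended by phosphatases such as Dusp1 and Dusp2, which inactivate MAP kinases, and by Zfp36, which speeds decay of short-lived mRNAs. Promoters of genes of the G2 and M phases often carry CCAAT boxes and a cell cycle homology region.

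The promoter of Ccnb2, a cyclin of mitosis among the 8 genes of the rule, is shown beside those of 3 genes outside the cell cycle lists on which the results turn. The sequences are RefSeq's (GRCm38.p6), from 250 bases before to 50 after the gene's start, on the gene's strand. Capitals mark matches on either strand to the cell cycle homology region (TTTGAA), the CCAAT box (CCAAT) and the cAMP response element (TGACGTCA). Its shorter form (TGACG), which also lies inside the full one, was searched but is not in capitals. The windows are chr9:70421505-70421804 (minus strand) for Ccnb2, chr2:25371785-25372084 (plus) for Sapcd2, chr2:127335909-127336208 (plus) for Dusp2 and chr7:45526219-45526518 (minus) for Ppp1r15a.
Ccnb2: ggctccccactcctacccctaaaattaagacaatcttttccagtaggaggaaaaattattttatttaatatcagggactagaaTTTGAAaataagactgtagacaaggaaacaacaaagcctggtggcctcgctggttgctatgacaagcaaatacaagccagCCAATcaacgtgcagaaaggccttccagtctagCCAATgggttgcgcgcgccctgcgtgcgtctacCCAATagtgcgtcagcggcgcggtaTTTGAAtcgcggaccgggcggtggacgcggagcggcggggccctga
Sapcd2: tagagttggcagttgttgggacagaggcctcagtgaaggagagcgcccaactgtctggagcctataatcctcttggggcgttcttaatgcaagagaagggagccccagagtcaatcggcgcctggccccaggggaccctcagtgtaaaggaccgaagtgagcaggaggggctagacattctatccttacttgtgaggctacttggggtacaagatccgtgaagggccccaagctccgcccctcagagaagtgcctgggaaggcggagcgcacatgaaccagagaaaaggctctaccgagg
Dusp2: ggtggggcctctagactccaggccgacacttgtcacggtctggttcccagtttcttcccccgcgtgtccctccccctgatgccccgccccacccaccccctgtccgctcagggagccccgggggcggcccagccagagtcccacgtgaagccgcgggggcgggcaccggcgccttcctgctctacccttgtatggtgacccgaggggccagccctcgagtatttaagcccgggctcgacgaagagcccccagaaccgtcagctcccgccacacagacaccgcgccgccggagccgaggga
Ppp1r15a: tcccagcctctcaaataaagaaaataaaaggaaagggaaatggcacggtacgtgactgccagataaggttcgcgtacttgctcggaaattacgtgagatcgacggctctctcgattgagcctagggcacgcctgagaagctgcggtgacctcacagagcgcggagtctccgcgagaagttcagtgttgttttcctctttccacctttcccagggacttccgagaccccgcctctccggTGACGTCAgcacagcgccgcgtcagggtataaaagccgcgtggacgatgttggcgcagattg
Ccnb2 had CCAAT at positions -87, -54 and -21 from the start and TTTGAA at -167 and 5. Ppp1r15a had the full element TGACGTCA at -12 and TGACG also at 8. TGACG alone stood in Ccnb2, at -12, and in Dusp2, at 6, and Sapcd2 had none of the 4 motifs. Of the 58 genes of the rule or the cell cycle lists that were called higher in cycling cells of 2 mice, 47 had a promoter in the table. TTTGAA stood in 33 of them (70.2%) and in 18.1% of all 27025 promoters, and CCAAT in 35 (74.5%) and 37.9%. TGACG stood in 18 of the 47 (38.3%), in 9 of 25 promoters of the immediate early and stress list (36%) and in 21.0% of all promoters, and TGACGTCA in 1.88% of all. A match describes the letters of this window only.

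Cycling cells had more counts than resting cells in every mouse that had both. The median total was 315485 against 117467 counts in m4539, 461584 against 229019 in m4533 and 217153 against 81981 in m4528. The single cycling cell of m606 had 148429 counts against a resting median of 60795, and that of the shared plate 104683 against 56043. Over 4 mice the ratio was 2.43-fold (2.02 to 2.69), higher in 4 of 4, and that of detected genes 1.68-fold (1.47 to 1.81). The two-sided exact sign-flip permutation test gave p = 0.125 for each, the smallest that 4 mice allow. In m4528, 2 of 55 resting cells reached the lowest total of a cycling cell, and in m4539, m4533, m606 and the shared plate none did. A rule on counts takes in deep cells more easily, so depth and state cannot be told apart here. Levels below are given as CPM, the summed counts of a state and mouse scaled to a total of 1000000. Whether some wells held more than 1 cell was not tested.

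**Figure D1:**
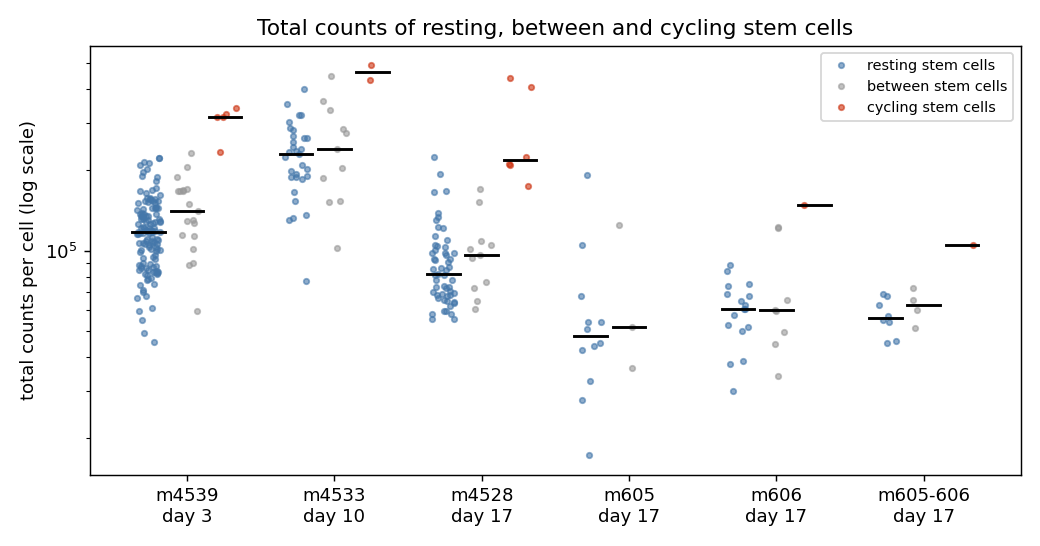
Total counts per cell (log scale) of resting, between and cycling stem cells in each mouse and on the plate of m605 and m606 together; each point is a cell. Cycling cells lie above the resting cells except in m4528, where 2 resting cells reach into their range.

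The 8 cell cycle genes chose the cells and are given as a description. Their summed level was 9791, 7289, 6761, 6917 and 2545 CPM in cycling cells of m4539, m4533, m4528, m606 and the shared plate, and 45.3, 37.8, 53.9, 118 and 112 CPM in resting cells. Top2a, which untangles DNA, exceeded 10 counts in 14 of 15 cycling cells, Mki67 and Birc5 in 13 each, and Ccnb2 and Cdk1 in 12 each. Rrm2, which makes DNA precursors, did so in 9. All 8 genes passed in 3 cells and 7 of them in 7 cells. The 2 cells of m4533 had only 2 and 4 counts of Cdk1. Just inside the threshold was 1 cell with 3 genes, a cell of m4528 with 440418 counts, and just outside were 5 cells with 2 genes and 60267 to 151767 counts.

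The 7 stem cell genes were part of the rule as well. Their sum was 2793, 1506, 1219.7, 1179.7 and 3119 CPM in cycling cells of m4539, m4533, m4528, m606 and the shared plate, and 6450.3, 4655, 4696, 5324 and 6211 CPM in resting cells. Of the cycling cells 10 of 15 (66.7%) had the minimum of 3 stem cell genes, against 70 of 252 resting cells (27.8%), and the 3 cycling cells with 5 were all of m4539. Of stem cells with exactly 3 of the 7 genes 10 of 95 were cycling (10.5%), and of those with 4 or more 5 of 228 (2.19%). Just outside the threshold, with 2 stem cell genes, 5 of 40 cells had at least 3 cell cycle genes (12.5%). Outside the stem cell rule as a whole 342 of 687 cells did (49.8%).

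Stem cell genes that the rule did not use were found in cycling cells at uneven levels. Lmo2, a bridging protein of blood transcription complexes, was at 2418, 1786, 978 and 1649 CPM in cycling cells of m4539, m4533, m4528 and the unit of m605, m606 and their shared plate, and at 2609, 3159, 2850.1 and 2245 CPM in resting cells. The same 4 units, in this order, are used from here on. Ly6a, which encodes Sca-1, was at 6.56, 2.17, 76.2 and 0 CPM in cycling and 217, 186, 296 and 377 CPM in resting cells (4 units, log2 change -5.18 ± 1.41, SE, edgeR adjusted p = 0.147). Hoxb5, a stem cell homeobox gene, was at 66.2, 0, 0 and 0 CPM against 48.5, 38.9, 48.2 and 51.5 CPM, so its counts in cycling cells came from day 3. With each cell thinned to 10000 counts, edgeR called 55 of 3911 genes higher (1.41%) and 61 lower (1.56%) in 4 units. Lmo2, Ly6a and Meis1, a homeobox factor of stem cells, were among the lower ones there (log2 change -1.03, -3.94 and -1.86, adjusted p = 0.00643, 0.0156 and 0.0169). The lower genes there were not only stem cell genes. Dusp1, Jun, Txnip, Apoe and Rpl4 were among them too, without a call in the 4 units before thinning. Of 51 tested genes on this list none was called in 2 mice (0.0197% of all genes were called lower). A negative log2 change was found in 43 and a positive one in 8, with a median of -1.08. Over all 10133 genes tested 6627 were negative and the median was -0.71. Of the 28 list genes with a mean of at least 100 CPM 22 were negative (median -0.77), beside 1122 of all 2563 (median 0.11).

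Genes were tested on counts summed per mouse and state. Only m4539 and m4528 had 5 cells of each state, as the planned fit required, which left 1 residual degree of freedom. A fit of the 4 units, each with at least 2 cells of each state, was added once the data were known, and it shares those mice. In the unit of m605, m606 and their shared plate the resting sum holds 12 cells of m605, which had no cycling cell. The states of that unit are therefore not paired within a mouse. In 2 mice edgeR's quasi-likelihood test (Benjamini-Hochberg, adjusted p under 0.05) called 60 of 10133 genes higher in cycling cells (0.592%) and 2 lower (0.0197%). Of the 60 higher genes 58 belonged to the rule or to the S phase, G2M phase, wider cell cycle and histone lists, which the choice of cells fixes. Outside these, Sapcd2 and Mxd3 were higher and Dusp2 and Ppp1r15a lower. Absence from the lists does not place a gene outside the cell cycle, as Sapcd2 takes part in orienting the mitotic spindle. In 4 units 52 of 8395 genes were called higher (0.619%) and 12 lower (0.143%), and outside the rule and the lists 1 and 10. Dusp2 and Ppp1r15a were called in both fits.

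Cycling cells had almost no Dusp2, a nuclear phosphatase of MAP kinases that is itself an immediate early gene (chromosome 2, 127336159 to 127338377). It was at 12.5, 1.08, 6.60, 0 and 9.57 CPM in cycling cells of m4539, m4533, m4528, m606 and the shared plate, and at 544, 252, 448, 414 and 962 CPM in resting cells. These sums of the states did not overlap, while single cells did, as many resting cells also had few counts or none. The share of all genes whose sums were apart in this way is not given here. Such separation is therefore a description of Dusp2 and of the genes below. No cycling cell had more than 10 counts (0 of 15, the highest count being 8), while 103 of 252 resting cells did. The log2 change was -5.67 ± 0.69 (SE, 2 mice, edgeR adjusted p = 0.0137) and -6.47 ± 0.83 (4 units, adjusted p = 0.00204). With each cell thinned to 10000 counts, 0 of 15 cycling and 118 of 252 resting cells had a count. The most deeply sequenced 25% of the resting cells had 505, 303, 169 and 1296 CPM in the 4 units, and the shallowest 25% had 450.1, 536, 555 and 904 CPM.

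Ppp1r15a was lower too (chromosome 7, 45522917 to 45526268). It encodes GADD34, which directs a phosphatase to eIF2α and so restores translation after stress. It was at 198, 16.2, 34.8, 182 and 28.7 CPM in cycling cells of m4539, m4533, m4528, m606 and the shared plate, and at 1335, 498, 667, 868 and 1177 CPM in resting cells, again without overlap of the sums. More than 10 counts were found in 6 of 15 and 163 of 252 cells. The log2 change was -3.41 ± 0.51 (2 mice, edgeR adjusted p = 0.0374) and -3.70 ± 0.51 (4 units, adjusted p = 0.00294). The call in 2 mice was lost with more than 20 counts in the gates (adjusted p = 0.0762), at least 2 of 8 genes (0.0923), no limit on lineage genes (0.0890), resting cells of the same plates (0.0648), the deepest 25% of resting cells (0.189) and no replicate block (0.212).

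Ccnd2, a D-type cyclin, was lower in the 4 units (chromosome 6, 127125162 to 127152188). Cycling cells had 385, 278, 387, 6.74 and 766 CPM in m4539, m4533, m4528, m606 and the shared plate, and resting cells 1431, 1066, 1622, 1058 and 960.0 CPM. The sums of the states did not overlap, but the single cells of m606 and the shared plate lay far apart. More than 10 counts were found in 6 of 15 and 189 of 252 cells. The log2 change was -1.89 ± 0.30 in 4 units (edgeR adjusted p = 0.00745) and -1.89 ± 0.30 in 2 mice, where it did not pass (adjusted p = 0.0521).

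These 3 genes were also the ones that passed against the most deeply sequenced 25% of the resting cells of each unit, where 29 of 6950 genes were called higher (0.417%) and 3 lower (0.0432%). The log2 changes there were -6.33 ± 0.96 for Dusp2, -3.61 ± 0.53 for Ppp1r15a and -2.18 ± 0.29 for Ccnd2 (edgeR adjusted p = 0.0360, 0.0302 and 0.0252). In 2 mice no gene outside the rule and lists passed that comparison with edgeR (lowest adjusted p = 0.0789, with 68 higher and 212 lower at an unadjusted p under 0.05).

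**Figure D2:**
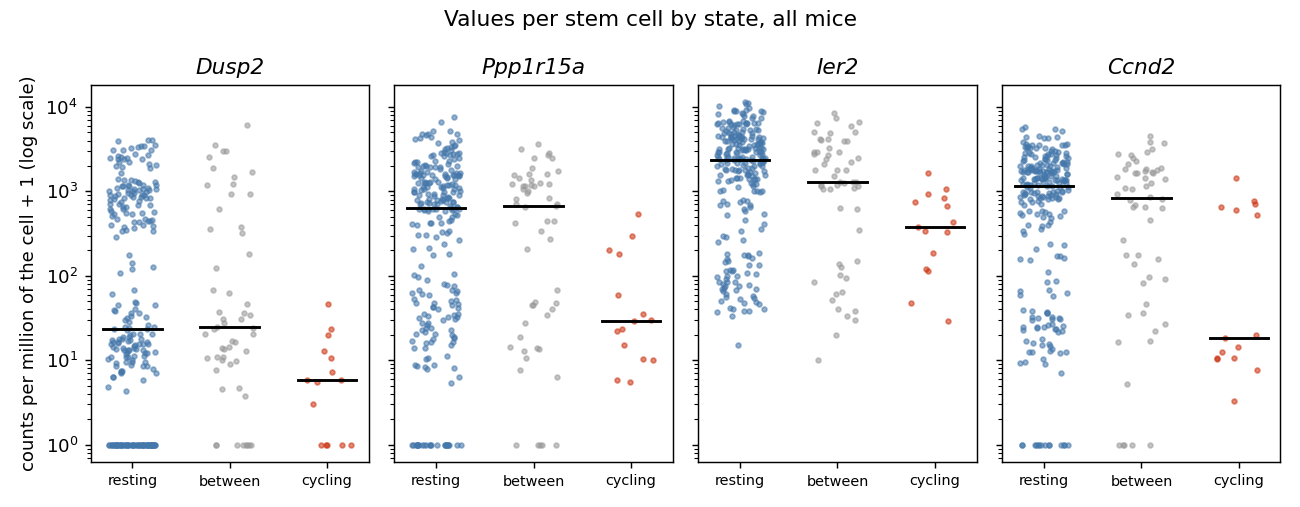
CPM of each cell plus 1 (log scale) for 4 genes in resting, between and cycling stem cells of all mice; each point is a cell. Dusp2 stays low in all 15 cycling cells, and Ccnd2 exceeds 10 counts in 6 of them.

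Several genes of the immediate early and stress list were lower in cycling cells. Of 25 tested members 2 were called lower and none higher in 2 mice (0.0197% and 0.592% of all genes), with a median log2 change of -2.33 beside -0.71 over all genes tested. In 4 units 6 of 23 were called lower (Dusp2, Ppp1r15a, Fos, Ier2, Zfp36 and Egr1, where 0.143% of all genes were), with a median of -3.09 beside -1.07. The list sum was 3378, 2135, 6313, 6269 and 5914 CPM in cycling cells of m4539, m4533, m4528, m606 and the shared plate, and 13498, 7722, 12033, 31111 and 38273 CPM in resting cells. Resting cells of the second table had the highest sums, m605 included with 27654 CPM. The part that handling of the cells had in these values was not tested.

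Ier2, a small nuclear regulator, exceeded 10 counts in 15 of 15 cycling cells, yet at a lower level. It was at 265, 36.8, 900.4 and 664 CPM in cycling and 3094, 1609, 2713 and 2897 CPM in resting cells (4 units, log2 change -3.09 ± 0.49, edgeR adjusted p = 0.00745). Fos, a subunit of AP-1, was at 91.8, 3.25, 453 and 585 CPM against 938, 132, 1166 and 5161 CPM (-3.17 ± 0.49, adjusted p = 0.00698). Zfp36 was at 80.0, 5.42, 274 and 795 CPM against 1073, 597, 817 and 4396 CPM (-3.41 ± 0.64, adjusted p = 0.0246), and Egr1, a zinc finger factor, at 30.8, 9.75, 203 and 221 CPM against 801, 599, 524 and 1420.1 CPM (-3.62 ± 0.73, adjusted p = 0.0410). For Fos and Zfp36 the resting value of m4533 lay within the range of the cycling values. Without the unit of m605 and m606 the calls of Fos, Zfp36 and Egr1 were lost (adjusted p = 0.210, 0.210 and 0.233), and that of Egr1 also without m4533 (0.146). Dusp1 was at 429, 16.2, 691 and 767 CPM against 1685, 1166, 1575 and 3729.5 CPM and did not pass (adjusted p = 0.0941). Jun, the partner of Fos, was at 173, 4.33, 1346 and 1048 CPM against 819.9, 365, 1256 and 3074 CPM, higher in cycling cells of m4528 and lower in the other units (adjusted p = 0.216).

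Tcp11l2, Malat1 and Dst were the other genes lower in 4 units. Tcp11l2 (chromosome 10, 84576947 to 84614355) was at 1.31, 6.50, 12 and 3.96 CPM in cycling and 249.6, 861, 376 and 210.2 CPM in resting cells (log2 change -6.23 ± 0.91, edgeR adjusted p = 0.00418), and above 10 counts in 1 of 15 and 95 of 252 cells. Malat1, a nuclear long noncoding RNA, was at 2737, 1169, 1706 and 2452 CPM against 4960.4, 2609.7, 3551 and 7345 CPM (-1.12 ± 0.18, adjusted p = 0.00745). The resting value of m4533 was within the range of the cycling values, and the call was lost without that mouse (adjusted p = 0.114). Dst, a cytoskeletal linker, was at 0.656, 2.17, 2.40 and 0 CPM against 147, 241, 249 and 195 CPM (-7.19 ± 1.45, adjusted p = 0.0424), and its call was lost whichever unit was left out (adjusted p from 0.0553 to 0.246). Dusp2, Ppp1r15a, Ccnd2, Ier2 and Tcp11l2 passed whichever unit was left out. All 10 genes were lower in 4 of 4 units. They were picked by their call in these same units, so this is a description and no further support. Of all 8395 genes tested in 4 units 6200 had a negative change.

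**Figure D3:**
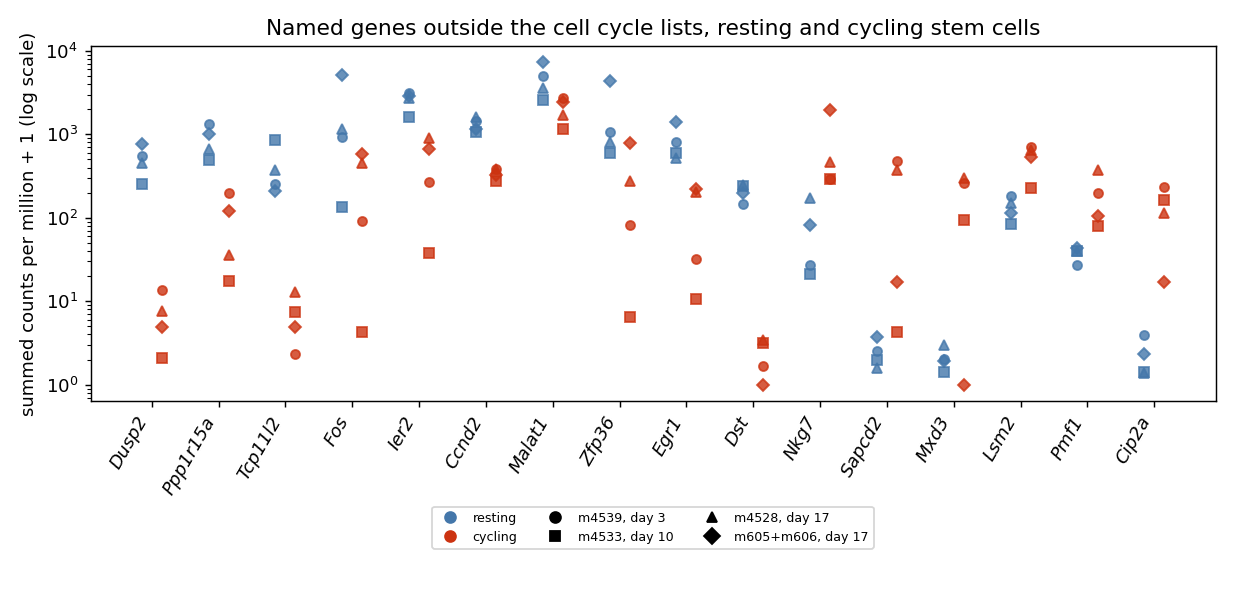
CPM plus 1 (log scale) of named genes in resting and cycling stem cells, with 1 symbol for each of the 4 units. The states are apart for Dusp2, Ppp1r15a, Tcp11l2, Ccnd2, Dst, Ier2, Egr1, Nkg7, Lsm2, Pmf1 and Cip2a, and overlap for Fos, Malat1 and Zfp36. Sapcd2 is near the resting level in the cycling cells of m4533, and Mxd3 is at 0 in those of m605 and m606.

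Sapcd2 and Mxd3 were higher in cycling cells of 2 mice. Sapcd2, which takes part in orienting the mitotic spindle (chromosome 2, 25372035 to 25378213), was at 481, 3.25, 369.8 and 15.8 CPM in cycling cells of the 4 units and 1.55, 0.991, 0.595 and 2.71 CPM in resting cells. It exceeded 10 counts in 9 of 15 cycling and 0 of 252 resting cells, all of the 9 in m4539 and m4528 (2 mice, log2 change 8.76 ± 0.88, edgeR adjusted p = 0.00567). Mxd3, a partner of MAX in the MYC network (chromosome 13, 55325170 to 55329900), was at 262, 92.1, 303 and 0 CPM against 1.03, 0.425, 1.98 and 0.904 CPM, above 10 counts in 8 and 0 cells (7.69 ± 1.06, adjusted p = 0.0259). The filter on low counts removed both genes from the fit of 4 units, so they have no test there. In 3 mice with at least 2 cells of each state neither passed (log2 change 7.23 and 7.77, edgeR adjusted p = 0.362 and 0.120), nor in 2 mice with no replicate block (0.0506 and 0.0678) or with the deepest 25% of resting cells (0.0789 and 0.189). In 2 mice the call of Mxd3 was also lost with more than 20 counts in the gates (adjusted p = 0.253), at least 2 of 8 genes (0.0577) and no limit on lineage genes (0.0575).

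Nkg7, a granule protein of cytotoxic and myeloid cells, was the gene higher in 4 units (chromosome 7, 43437138 to 43438246). It was at 288, 290.3, 470.0 and 1938 CPM in cycling and 26.0, 19.97, 169 and 81.4 CPM in resting cells, without overlap of the sums (log2 change 3.43 ± 0.62, edgeR adjusted p = 0.0194). It exceeded 10 counts in 7 of 15 cycling cells, of which 1 was of m4539 and 1 of m4533, and in 17 of 252 resting cells. The call was lost without m4533 (adjusted p = 0.0732) and without the unit of m605 and m606 (0.362), and the gene did not pass in 2 mice (0.428).

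Nkg7 is on the multipotent progenitor and neutrophil lists, and both sums were high in the cycling cell of m606. The 20 progenitor markers summed to 1730.1, 1612, 3652, 11177 and 2765 CPM in cycling cells of m4539, m4533, m4528, m606 and the shared plate, against 1756, 1882, 2833, 2371 and 1679 CPM in resting cells. The 20 neutrophil markers summed to 1443, 1760.2, 2532, 8063 and 2249 CPM against 1522, 1504, 3071, 2113 and 2805 CPM. Mpo, the peroxidase of neutrophil granules, was at 13.1, 128, 381 and 1301 CPM in the 4 units against 8.96, 50.3, 493 and 406 CPM, and Plac8, a progenitor gene, at 7.87, 334, 837 and 2215 CPM against 37.7, 24.1, 272 and 404 CPM (edgeR adjusted p = 0.557 and 0.466). Cd48, a surface marker of progenitors, exceeded 10 counts in 1 cycling cell, that of m606, and in no resting cell. Of the progenitor markers 18 exceeded 10 counts in some cycling cell and 17 in some resting cell, and of the neutrophil markers 14 and 14. With far fewer but deeper cycling cells, these counts of markers cannot be compared between the states. The part of these markers in the results was not tested.

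Markers of other lineages were found in both states. Erythroid markers summed to 1618 to 6497 CPM in cycling and 4105 to 6532 CPM in resting cells over mice and the shared plate, most of it Car2. Megakaryocyte markers summed to 402 to 1861 CPM against 839 to 1676 CPM and monocyte markers to 264 to 1234 CPM against 513 to 1718 CPM. Of 13 lymphoid markers 1 exceeded 10 counts in any cycling and 5 in any resting cell, and of 14 basophil or mast cell markers 4 and 5. The states differ in number of cells and in depth, so these counts of markers cannot be compared between them.

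The next genes by p in 2 mice did not pass. Lsm2, of the U6 snRNP, was at 699, 225, 645 and 534 CPM in cycling and 182, 84.4, 151 and 114 CPM in resting cells, and above 10 counts in 15 of 15 and 55 of 252 cells (log2 change 2.10 ± 0.43, edgeR adjusted p = 0.158). Cip2a, an inhibitor of the phosphatase PP2A, was at 231, 162, 112 and 15.8 CPM against 2.97, 0.425, 0.396 and 1.36 CPM (adjusted p = 0.224), and Pmf1, a kinetochore protein, at 197, 78.0, 375 and 103 CPM against 26.4, 38.9, 38.5 and 42.0 CPM (0.332). The other genes on the higher side were Eldr, Cntrl (a centriole protein), Ints10, BC030867, Ubap2, Haus3 (of the augmin complex) and Nans, with adjusted p from 0.242 to 0.415. On the lower side were H2-Aa, Rbm34, Apoe, Ncor1 and Use1, with adjusted p from 0.0580 to 0.209, besides Ccnd2, Tcp11l2, Ier2, Dst and Dusp1. H2-Aa, a class II MHC chain, was at 0.656, 325, 1.20 and 0 CPM against 139, 157, 353 and 239.6 CPM, and the value of m4533 came from 1 cycling cell with 300 counts.

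The other cyclins and kinases of G1 and the CDK inhibitors gave no call. Ccnd1 was at 0, 1.08, 0.60 and 0 CPM in cycling and 99.2, 128, 126 and 69.6 CPM in resting cells, above 10 counts in 0 of 15 and 29 of 252 cells (4 units, edgeR adjusted p = 0.134). Ccnd3 was at 312, 169, 529 and 233 CPM against 244, 276, 212 and 227 CPM. Cdk4, the kinase of D-type cyclins, was at 363, 949, 1459.8 and 1040.2 CPM against 336, 464, 538 and 232 CPM, above the resting value in 4 of 4 units without passing (adjusted p = 0.167). Its relative Cdk6 was at 48.5, 361, 331 and 724 CPM against 61.5, 84.5, 159.6 and 61.0 CPM, and Myc, a driver of cell growth, at 602, 73.7, 611 and 566 CPM against 493, 467, 453 and 376 CPM. Cdkn1c, an inhibitor linked to stem cell rest, was at 458, 351, 88.8 and 0 CPM against 379.7, 485, 174 and 254 CPM, with 51.8, 1.08, 118 and 7.91 CPM against 80.1, 103, 115 and 80.9 CPM for Cdkn1b. Cdkn1a exceeded 10 counts in 1 of 15 and 11 of 252 cells. Of 21 tested genes on the G1 list none was called in 2 mice, and of 28 inhibitors and brakes 1, Ppp1r15a. With 0.592% of all genes called higher and 0.0197% lower, no call among so few genes is not a result about the G1 list.

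Other genes of interest in stem cells did not pass in 2 mice or in 4 units either. Kit, the receptor of stem cell factor, was at 157, 146, 94.8 and 79.1 CPM in cycling and 147, 249, 219.6 and 133 CPM in resting cells. Cd34 was at 167, 2.17, 750.3 and 870.1 CPM against 134, 268, 266 and 154 CPM. Txnip, a brake on glucose uptake, was at 508, 365, 419.6 and 273 CPM against 734, 1284, 1269 and 679.5 CPM, lower in 4 of 4 units (4 units, edgeR adjusted p = 0.147). Vwf exceeded 10 counts in 1 of 15 and 16 of 252 cells, and Cxcr4 in 1 and 1.

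Lists of growth and energy genes held no called gene, where 0.592% of all genes were called higher and 0.0197% lower in 2 mice. Genes of low level mostly had negative changes: the median over all 10133 genes was -0.71 (-0.53 with the scaling of DESeq2), and 0.11 over the 2563 with a mean of at least 100 CPM. At that level 50 of 58 respiration genes and 21 of 24 splicing genes had a positive change, with medians of 0.44 and 0.68, beside 1441 of all 2563. In 4 units 37 of 58 and 19 of 24 were positive (medians 0.25 and 0.44), beside 1031 of all 2553 (median -0.23). Respiration genes summed to 26296, 12956, 22804, 37178 and 23243 CPM in cycling cells of m4539, m4533, m4528, m606 and the shared plate, and 22958, 14811, 16849.6, 25946 and 23802 CPM in resting cells, so the direction differed between mice. Splicing genes summed to 12719.7, 11891, 10667, 10819.8 and 11769.8 CPM against 8339, 8383, 7868, 8309 and 7482 CPM, higher in each of them. Ribosomal protein genes had a negative change in 33 of 39 at that level (median -0.22), for example Rpl4 at 4106, 3692, 5324 and 5668 CPM in the 4 units against 6145, 5671, 7562 and 5543 CPM. Interferon response genes had a median of -1.29 over 44 genes but -0.20 over the 18 at that level, and cholesterol and fatty acid synthesis genes -2.23 over 31 but 0.06 over 5.

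**Figure D4:**
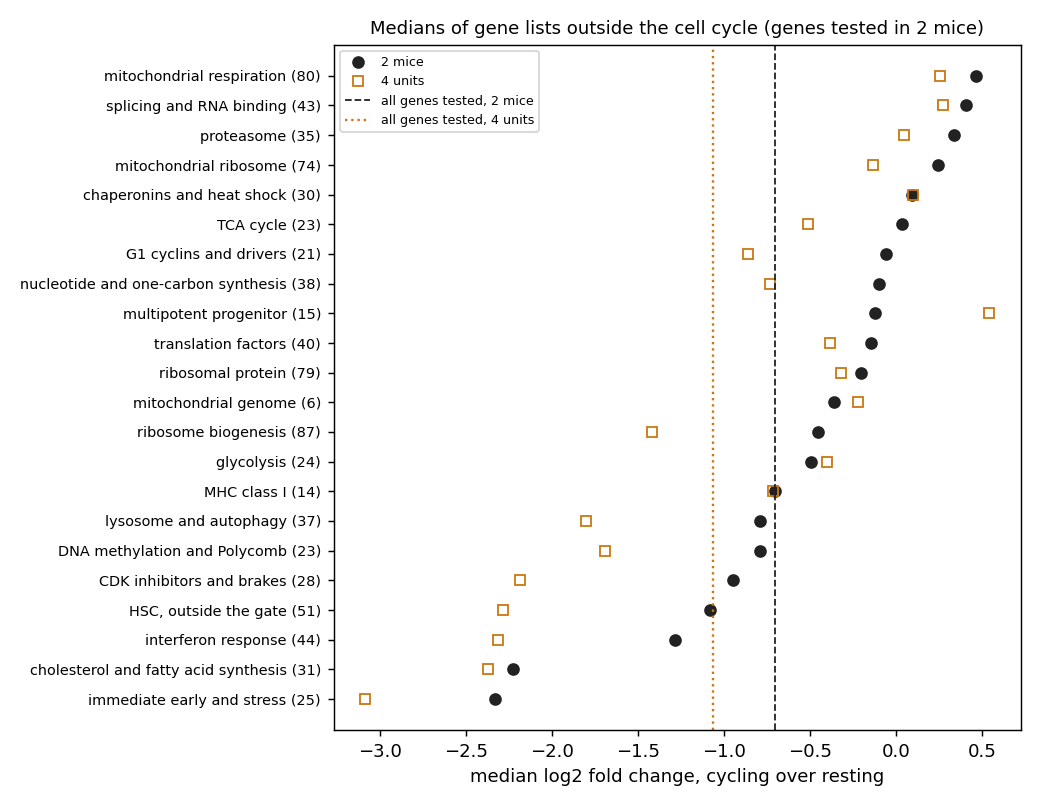
Median log2 fold change, cycling over resting, of gene lists outside the cell cycle in 2 mice (filled circles) and in 4 units (open squares), with the number of genes tested in 2 mice. Vertical lines are the medians over all genes tested, -0.71 and -1.07, and the immediate early and stress list lies farthest left of those drawn. Lists of other cell types, adhesion and apoptosis are not drawn, of which dendritic cell (-4.95), basophil or mast cell (-3.24), stromal or endothelial (-5.10) and macrophage (-5.85) lists lay farther left in 2 mice.

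Stem cells with 1 or 2 of the cell cycle genes had Dusp2 at 202, 99.3, 619, 429, 352 and 2606 CPM in m4539, m4533, m4528, m606, m605 and the shared plate, above 10 counts in 18 of 56 cells. Ppp1r15a was at 804, 709, 265, 1272, 502 and 1893 CPM and Ccnd2 at 1647, 1482, 769.6, 759, 32.9 and 257 CPM in them. All stem cells with at least 1 of the 8 genes were set against those with none in 4 mice, and edgeR called 4 of 9837 genes (0.0407%), all from the rule or the cell cycle lists. None was called outside them, where 114 were higher and 278 lower at an unadjusted p under 0.05, and the log2 change of Dusp2 was -1.21 ± 0.34 (adjusted p = 0.718).

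The share of cycling cells is given by mouse, and too few mice were taken for a test between days to pass. It was 3.27% at day 3 (5 of 153, exact Clopper-Pearson 95% interval 1.07 to 7.46) and 4.55% at day 10 (2 of 44, 0.555 to 15.5). At day 17 it was 8.33% in m4528 (6 of 72, 3.12 to 17.3), 3.85% in m606 (1 of 26, 0.0973 to 19.6) and 0 of 15 in m605 (0 to 21.8). The limit that a count of 0 allows in m605, 3 of 15 cells, is 20%. The shared plate had 1 of 13. The 3 mice of day 17 had a mean of 4.06% ± 4.17 (SD, n = 3) against 3.91% in the 2 earlier mice (two-sided exact permutation test, p = 1, where 0.1 is the smallest possible). Intervals cover counting error only. Both cycling cells of m4533 came from 1 plate, and the share was 0 without it. That of m4528 was 5.26 to 11.4% with 1 plate left out.

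**Figure D5:**
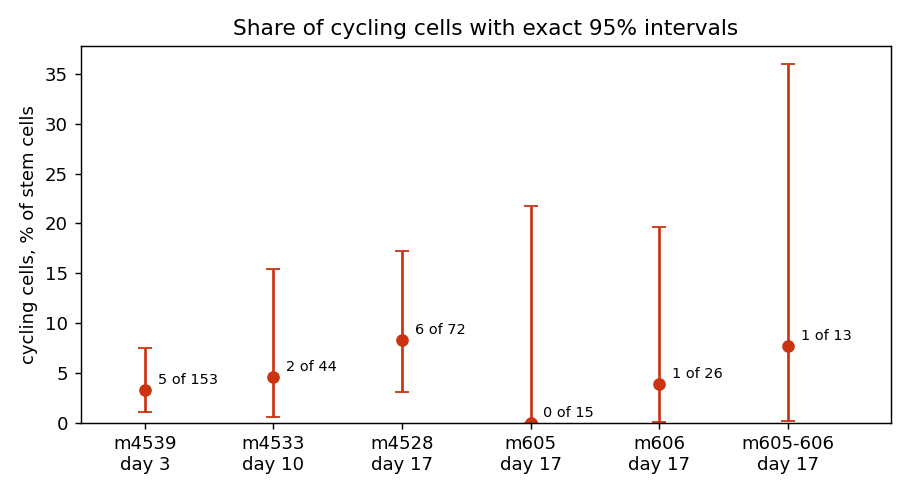
Cycling cells as a percentage of stem cells in each mouse and on the plate of m605 and m606 together, with exact 95% binomial intervals. All intervals overlap.

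By day, the difference between the states was called as changed for 1 of 8395 genes (0.0119%), Sult1a1, a gene of the rule, so nothing is read from it. Outside the rule and the lists edgeR called none, with 94 higher and 82 lower at an unadjusted p under 0.05. Ier2 was 11.7-fold lower in cycling cells at day 3, 43.7-fold at day 10, 3.01-fold in m4528 and 4.36-fold in the unit of m605 and m606, and the change with day did not pass (log2 2.36 ± 0.57, edgeR adjusted p = 1). For Dusp2 and Ppp1r15a it was -0.50 and -0.12 (adjusted p = 1 and 1).

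DESeq2 made more calls on the sums of the 2 mice, with 179 of 10272 genes higher (1.74%) and 254 lower (2.47%). Of these 51 and 251 lay outside the rule and the lists, and Sapcd2, Mxd3, Dusp2 and Ppp1r15a were among them.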

How the data were processed

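Per the labels, polyA RNA of single sorted cells was read with a modified Smart-seq2 method. The authors deposited whole-number counts per gene and cell in 2 tables, and per the submitters' processing notes the genome build was GRCm38. No source used here names the aligner, the counter or molecular identifiers, and intervals cover counting error only. Genes found in both tables (22842) were kept, cells were chosen by the count rule, and counts were summed per mouse and state. The mouse is the replicate, except that the unit of m605, m606 and their shared plate pools 2 mice.

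Sums were tested with edgeR 4.0.16 (TMM, low-count filter, quasi-likelihood, mouse or unit as block) in R 4.3.3, with DESeq2 1.42.0 as an alternative. A check on simulated counts gave both states the same spread. It cannot show how the fit behaves with so few cycling cells against many resting ones. The pairing of the states comes from the mouse itself, except in the pooled unit of m605, m606 and their shared plate. The planned fit (at least 5 cells of each state) reached 2 mice, so a fit of 4 units (at least 2 cells) was added after seeing the data. The test of day used the 4 units, since 2 mice left no residual degrees of freedom. No doublet caller was run.

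Named genes were up to 12 in each direction past the threshold outside the rule and the cell cycle lists, with the same sign in every mouse and at least 20 CPM, filled by lowest p, up to 4 per list, the genes of the rule and 16 fixed genes, of which 1 is not reported here. The members and lists were chosen with earlier results of these data known.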

Additional observations from a re-analysis of the deposited data

Results flagged for a closer look

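Sult1a1, a sulfotransferase gene and 1 of the 7 stem cell genes of the rule, stood out because its difference between the states was unlike by day. The gene took part in choosing the cells, so its values are a description with no test. The log2 difference of day 17 from days 3 and 10 was -6.72 in 4 units. Sult1a1 was at 623, 251, 4.2 and 0 CPM in cycling cells of m4539, m4533, m4528 and the unit of m605 and m606, and at 1374, 1860.3, 1105 and 812 CPM in resting cells. It exceeded 10 counts in 4 of 15 cycling cells, all of days 3 and 10. Days 3 and 10 are 1 mouse each. The interaction was added for 4 units after the data had been seen, since 2 mice left no residual degrees of freedom for it.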

How the results depend on the processing

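Depth, 15 cycling cells and 1 residual degree of freedom in 2 mice limit the results. Outside the rule and lists, 2 genes were higher and 2 lower in 2 mice. The counts were 51 and 251 with DESeq2, 0 and 7 with at least 2 cells of each state, 1 and 1 with more than 20 counts in the gates, 1 and 1 with at least 2 of 8 cycling genes, 20 and 24 with no limit on lineage genes, 1 and 10 in 4 units, 0 and 0 with the deepest 25% of resting cells, and 0 and 0 for at least 1 of 8 genes against none. Lower genes were 32 without the low-count filter, 56 with cells thinned to 10000 counts and 1 with resting cells of the same plates. The states are paired by mouse, and with no replicate block the counts were 0 and 0. The cause of these changes was not tested.

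In 4 units, with 1 higher and 10 lower, the counts were 53 and 1221 with DESeq2, 2 and 50 without the filter, 0 and 3 with the deepest 25%, 0 and 6 with the same plates, 3 and 55 with thinned cells, and 6 lower with RLE scaling. With no replicate block they were 1 and 12. Leaving out 1 unit gave 0 to 2 higher and 7 to 19 lower genes. The test of day called 91 genes with DESeq2 and 0 to 15 with 1 unit left out. Without 1 plate the share of cycling cells was 0 to 8.0% in m4533 and 0 to 8.33% in m606, and with cells thinned to 20000 counts it was 0 in m606. The difference of day 17 from earlier days, 0.153 percentage points, was -2.18 with thinned cells (exact permutation p = 0.6), -0.0866 with more than 20 counts (p = 1), 1.68 with a gate in CPM and 2.36 with at least 2 of 8 genes (p = 0.7 for both), and -1.57 to 2.43 without 1 plate. The calls of 2 mice held for Dusp2 in 13 of 16 alternatives, Ppp1r15a in 9 of 16, Mxd3 in 8 of 14 and Sapcd2 in 11 of 15. Merging m605, m606 and their shared plate, leaving out the highest-count cells or using the first table alone left that fit unchanged. These alternatives are counted as held but are no separate checks. Named genes not called in 2 mice gained a call in 58 pairs of gene and alternative, and 0 reversed. A minimum of 10 cells, depth-matched resting cells, a gate in CPM at 5 cells and leaving out 1 of the 2 mice could not be fitted.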
